A study of Drosophila melanogaster with 6 samples.

Results

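Follicle cells form the single-layered epithelium that surrounds the germline of each egg chamber in the fly ovary. Here, the nuclei of the 2 large follicle cell clusters, numbered 4 and 5 in the deposited annotation, were compared with each other in fed female flies, library by library, across all genes. The members were taken by the annotation alone: 1281 nuclei of cluster 4 (636 and 645 in the 2 libraries) and 1170 of cluster 5 (586 and 584), out of 20150 fed nuclei and 43027 nuclei in all 3 conditions.

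The series is single-nucleus RNA sequencing of whole bodies without heads from *Drosophila melanogaster* females, with 2 libraries from fed flies, 2 from day 2 of starvation and 2 from day 5. The flies of all 3 conditions carried PromE-gal4, which drives expression in oenocytes, together with Tub-gal80ts, a temperature-sensitive block on Gal4, and no gene was deleted or knocked down in any of them. They were raised at 18 °C, collected within 48 h of emerging, held at 18 °C for another 48 h and moved to 29 °C before nuclei were isolated and sorted by a DNA dye. For the time at 29 °C the labels of a fed sample give both 7 days and 5 days. Whether the 2 libraries of a condition came from separate flies is not stated in the sources used here, so the spread between them may be technical.

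As background, follicle cells arise from stem cells at the front of the ovary and at first multiply by mitosis. A signal from the germline, the ligand Delta acting on the receptor Notch, then moves them into the endocycle, in which DNA is copied without division. The dividing cells are known for the homeodomain protein Cut and the mitotic activator String, and the later cells for the zinc finger protein Hindsight and the ubiquitin ligase activator Fizzy-related. Later still, follicle cells make yolk proteins and secrete the layers of the eggshell, first the vitelline membrane and then the chorion.

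Both clusters carried the marker of follicle cells *tj*, the gene of the transcription factor Traffic jam, which was at a level of 3.71 and 4.23 UMIs per 10000 in cluster 4 and at 2.36 and 2.66 in cluster 5, against 0.136 in flight muscle, the largest cluster of the annotation. Here and below a level is the number of unique molecular identifiers (UMIs, each standing for 1 captured RNA molecule) of a gene per 10000 UMIs of that cluster in that library, given in the order of the 2 fed libraries. The follicle cell name thus fitted both clusters by this marker. *slbo*, the border cell factor, had 18 UMIs in cluster 4 and 1 in cluster 5, and *upd1*, the ligand made by polar cells, had 3 and 6, while other genes of the polar, border and stretch cell lists had levels given further on.

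The 2 fed libraries held 22933153 and 21306144 UMIs. A nucleus of cluster 4 held more RNA than a nucleus of cluster 5, with medians of 2320 and 2217 UMIs against 1374 and 1344. By the mean, a cluster 4 nucleus held 1.81 and 1.82 times the UMIs of a cluster 5 nucleus in the same library. Levels are shares of the total and hide this difference, so the same comparison was also made per nucleus where it bears on a result. No barcode call for doublets was made, and 1 barcode sequence was shared between the fed libraries among these nuclei.

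Cluster 4 and cluster 5 differed in a large part of the genome. Of 7489 genes with enough UMIs to be tested, 995 (13.3%) were higher in cluster 4 and 1221 (16.3%) were higher in cluster 5 (limma on summed UMIs with the library as a block, Benjamini-Hochberg adjusted p under 0.05). The annotation was made from the RNA of these same nuclei, so the test says only how alike the difference was in the 2 libraries and is no independent evidence that the clusters differ. A difference of at least 2-fold in each of the 2 libraries was seen for 321 genes (4.29%) toward cluster 4 and 367 (4.9%) toward cluster 5. The levels of the clusters did not overlap between libraries in 4645 of the tested genes (62%), a share that leaves little weight on a lack of overlap alone. Across the tested genes, the difference in the first library and that in the second had a Pearson r of 0.745, as a description over genes that share their libraries.

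The split between the directions depended on the scale. Per nucleus in place of per total UMIs, a scale added after the depths had been seen, 4734 genes were higher in cluster 4 and 255 in cluster 5, and the median log2 difference of all tested genes moved from 0.08 to -0.78. On the mean of the deposited log values, which depends on the depth of the nuclei, the counts were 3585 and 398. The differences below are log2 of cluster 5 over cluster 4, so that a negative value means more in cluster 4, and are read against that median. Counts of list members are read against the 13.3% of all tested genes that passed toward cluster 4 and the 16.3% toward cluster 5. Of the 367 genes at least 2-fold higher in cluster 5, 245 were also higher there per nucleus. The change of scale moves every gene toward cluster 4 by nearly the same amount, 0.858 and 0.863 (log2) in the 2 libraries. That all 321 genes toward cluster 4 were also higher there per nucleus was thus fixed in advance.

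**Figure D1:**
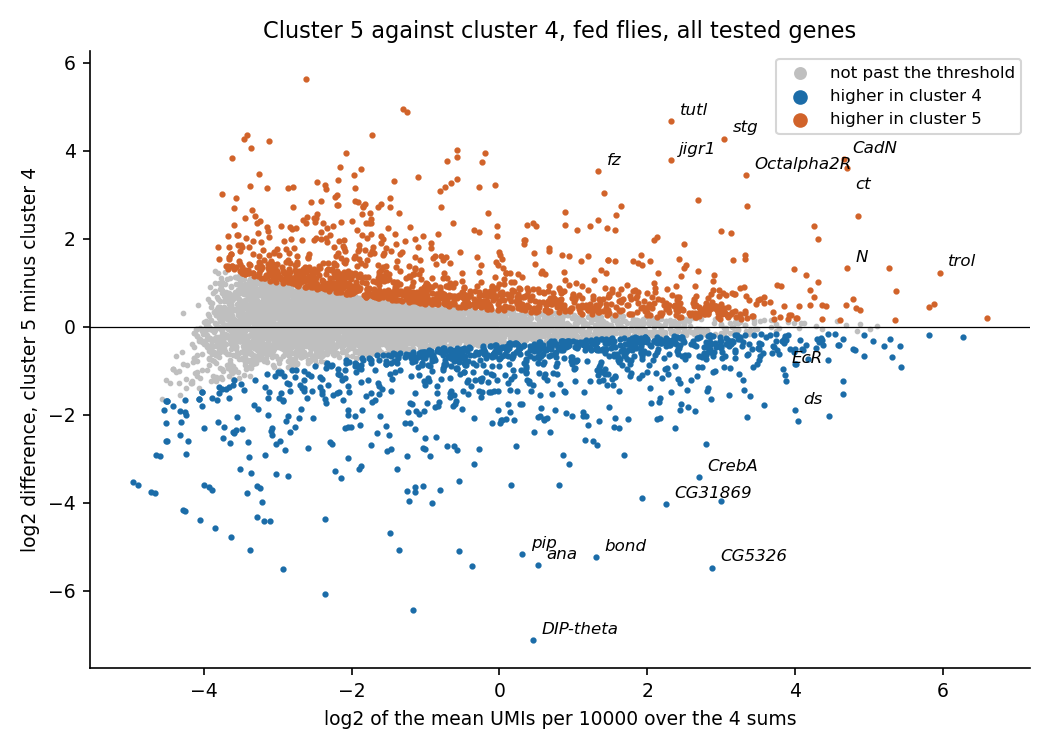
Each point is 1 of the 7489 tested genes, with the log2 of its mean level over the 4 sums (2 clusters in 2 fed libraries, UMIs per 10000) on the horizontal axis and the log2 difference, cluster 5 minus cluster 4, on the vertical axis. Blue points passed the test toward cluster 4 (995), orange points toward cluster 5 (1221), and grey points did not pass.

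Among the 12 leading genes toward cluster 5 were *stg*, *ct* and *CadN*. *stg*, which encodes the String phosphatase that starts mitosis, was at 0.774 and 0.842 UMIs per 10000 in cluster 4 and at 15.1 and 16.3 in cluster 5, a 19.4-fold difference (log2 4.28 ± 0.10, SE). *ct*, the gene of Cut, was at 3.99 and 3.93 UMIs per 10000 in cluster 4 and at 48.2 and 47.8 in cluster 5 (log2 3.60 ± 0.06). Neither gene came near an overlap between the clusters, and for *stg* cluster 5 had the highest level of all 26 clusters of the annotation. *CadN*, the N-cadherin gene of cell adhesion, was at 2.76 and 4.12 UMIs per 10000 in cluster 4 and at 47.1 and 47.2 in cluster 5 (log2 3.80 ± 0.07), and it too was highest in cluster 5.

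These genes were spread broadly over the nuclei of cluster 5. With every nucleus reduced to 1000 UMIs, *CadN* was found in 94.1% and 95.5% of the cluster 5 nuclei and in 14.2% and 18.3% of those of cluster 4. For *stg* the shares were 55.4% and 58.5% against 6.32% and 7.14%, the latter close to the 5.23% and 4.94% of flight muscle nuclei, which should lack it. The share with *ct* was 85.4% and 85.8% in cluster 5, 24.6% and 22.05% in cluster 4 and 3.07% and 3.43% in flight muscle. Cluster 4 thus kept *ct* and *CadN* RNA above the flight muscle share in both libraries. Before this reduction the shares with *stg* were 62.8% and 65.8% in cluster 5 and 12.7% and 11.5% in cluster 4. It left out 57 and 76 shallower nuclei of cluster 5, 3 and 1 of cluster 4 and 839 and 1081 of flight muscle.

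The other leading genes toward cluster 5 came from several families. *tutl*, a transmembrane protein of the immunoglobulin superfamily, was at 0.453 and 0.310 UMIs per 10000 in cluster 4 and at 9.31 and 10.02 in cluster 5, a 25.6-fold difference. *fz*, the Frizzled receptor of Wnt signals and planar polarity, was at 0.424 and 0.376 UMIs per 10000 in cluster 4 and at 4.73 and 4.58 in cluster 5. *Octalpha2R*, a receptor for the amine octopamine, was at 1.65 and 1.75 UMIs per 10000 in cluster 4 and at 18.02 and 19.1 in cluster 5 and was highest in cluster 5 among all clusters, as was *jigr1* (0.711 and 0.639 in cluster 4, 9.24 and 9.35 in cluster 5). The microRNA genes mir-92a and mir-92b lie within *jigr1* on its strand, so reads of their precursor would be counted with it. *Bx*, which encodes a LIM-only cofactor of transcription, differed by 2.75 ± 0.12 (log2), and *Nhe2*, a sodium and hydrogen ion exchanger, by 2.60 ± 0.14. The remaining genes *ko*, *CG34417* and *CG9932* were 8.24-fold, 7.42-fold and 6.67-fold higher in cluster 5. Their shares of nuclei at equal depth, as above, were also compared with flight muscle. *CG9932* was in 67.7% and 67.3% of cluster 5 nuclei and in 67.8% and 66.2% of flight muscle nuclei. For *CG34417* the shares were 52.0% and 53.5% against 58.7% and 59.7%, and for *ko* 29.1% and 29.3% against 0.392% and 0.461%. *CG9932* and *CG34417* thus did not set cluster 5 apart from flight muscle.

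**Figure D2:**
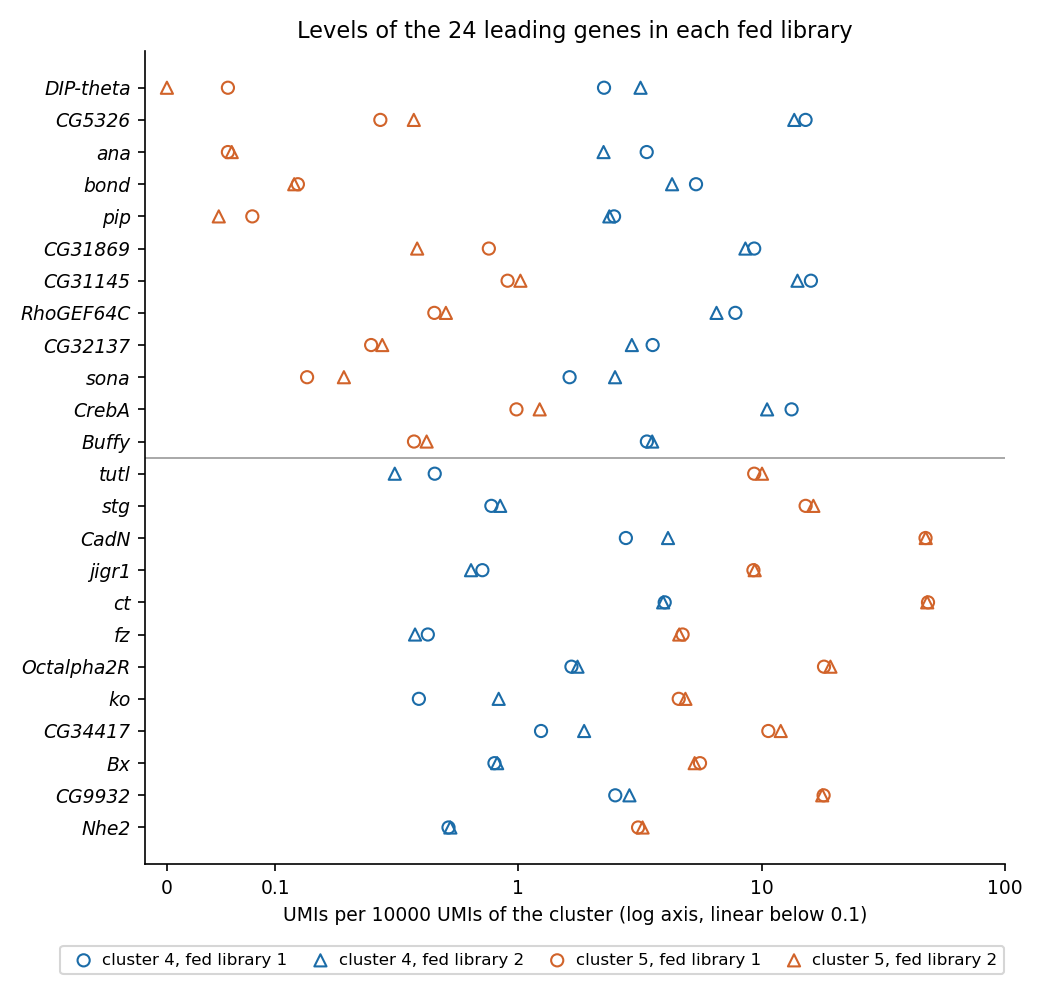
Levels (UMIs per 10000 UMIs of the cluster, log axis that turns linear below 0.1) of the 12 leading genes toward cluster 4, above the line, and the 12 toward cluster 5, below it. Circles and triangles are fed libraries 1 and 2, blue is cluster 4 and orange is cluster 5. In all 24 genes the levels of the clusters do not overlap, and *DIP-theta* had no UMI in cluster 5 of library 2.

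In the annotation of the BDGP6 assembly (Ensembl), *stg* lies at 3R, 29251826 to 29255800, *ct* at X, 7608428 to 7678859 and *CadN* at 2L, 17647053 to 17778340, each a protein-coding gene. Among the 24 leading genes, 14 overlap another annotated gene and 9 do so on the same strand, where reads of a shared stretch could belong to either gene.

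The genes of mitosis as a group were higher in cluster 5. Of 23 tested genes of the mitotic cycle, 21 were higher in cluster 5 and 0 in cluster 4, with a median log2 difference of 1.65, against 0.08 over all tested genes. Apart from *stg* they were at low levels. *Klp61F*, the kinesin that pushes spindle poles apart, was at 0.0573 and 0.101 UMIs per 10000 in cluster 4 and at 0.519 and 0.420 in cluster 5, from 27 and 81 UMIs in the 2 clusters. *BubR1*, a kinase of the spindle checkpoint, was at 0.0917 and 0.0537 UMIs per 10000 in cluster 4 and at 0.384 and 0.372 in cluster 5, and *pav*, the cytokinesis kinesin Pavarotti, was at 0.126 and 0.0656 UMIs per 10000 in cluster 4 and at 0.474 and 0.384 in cluster 5. They were 5.23-fold and 4.59-fold higher in cluster 5. The cyclin genes differed less, by 1.03 ± 0.15 (log2) for *CycA*, 0.81 ± 0.13 for *CycB* and 1.83 ± 0.33 for *CycB3*. Per nucleus, 13 of the 23 genes were higher in cluster 5, with a median of 0.79. *CycB* had a per-nucleus difference of -0.05, with the sign turned.

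Of 21 genes of the endocycle and replication, 3 were higher in cluster 5 and 1 in cluster 4 (median 0.30), against 16.3% and 13.3% of all tested genes. The gene toward cluster 4 was *fzr*, the Fizzy-related activator that removes mitotic cyclins in endocycling cells, which was at 6.69 and 6.43 UMIs per 10000 in cluster 4 and at 2.85 and 3.39 in cluster 5 (log2 -1.07 ± 0.09). Its highest level among all clusters was in cluster 4. *CycE*, the cyclin of DNA replication, was at 2.71 and 2.26 UMIs per 10000 in cluster 4 and at 3.61 and 3.90 in cluster 5 (log2 0.60 ± 0.10). This is less than the shift of 0.858 and 0.863 between the scales, so per nucleus its sign turned. *E2f1*, the activator of replication genes, had 10.7 and 10.8 in cluster 4, 9.93 and 10.5 in cluster 5 and did not pass (log2 -0.08 ± 0.07).

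Markers of early follicle cells were likewise higher in cluster 5. Of 7 such genes, 6 were higher in cluster 5 and 1 in cluster 4 (median 2.40), a list that shares *stg* and *ct* with the results above. *eya*, the Eyes absent transcription cofactor, was at 2.56 and 2.26 UMIs per 10000 in cluster 4 and at 9.10 and 8.61 in cluster 5 and was highest in cluster 5 of all clusters. *Fas3*, the adhesion protein Fasciclin 3, was at 4.62 and 5.62 UMIs per 10000 in cluster 4 and at 15.9 and 13.98 in cluster 5. *cas*, the zinc finger gene castor, had 5 UMIs in cluster 4 and 34 in cluster 5, a ratio of levels of 13.5 (95% counting interval 5.26 to 44.3). *ptc*, the Hedgehog receptor, was the exception, with 1.79 and 1.79 in cluster 4, 1.32 and 1.19 in cluster 5 (log2 -0.51 ± 0.13).

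**Figure D3:**
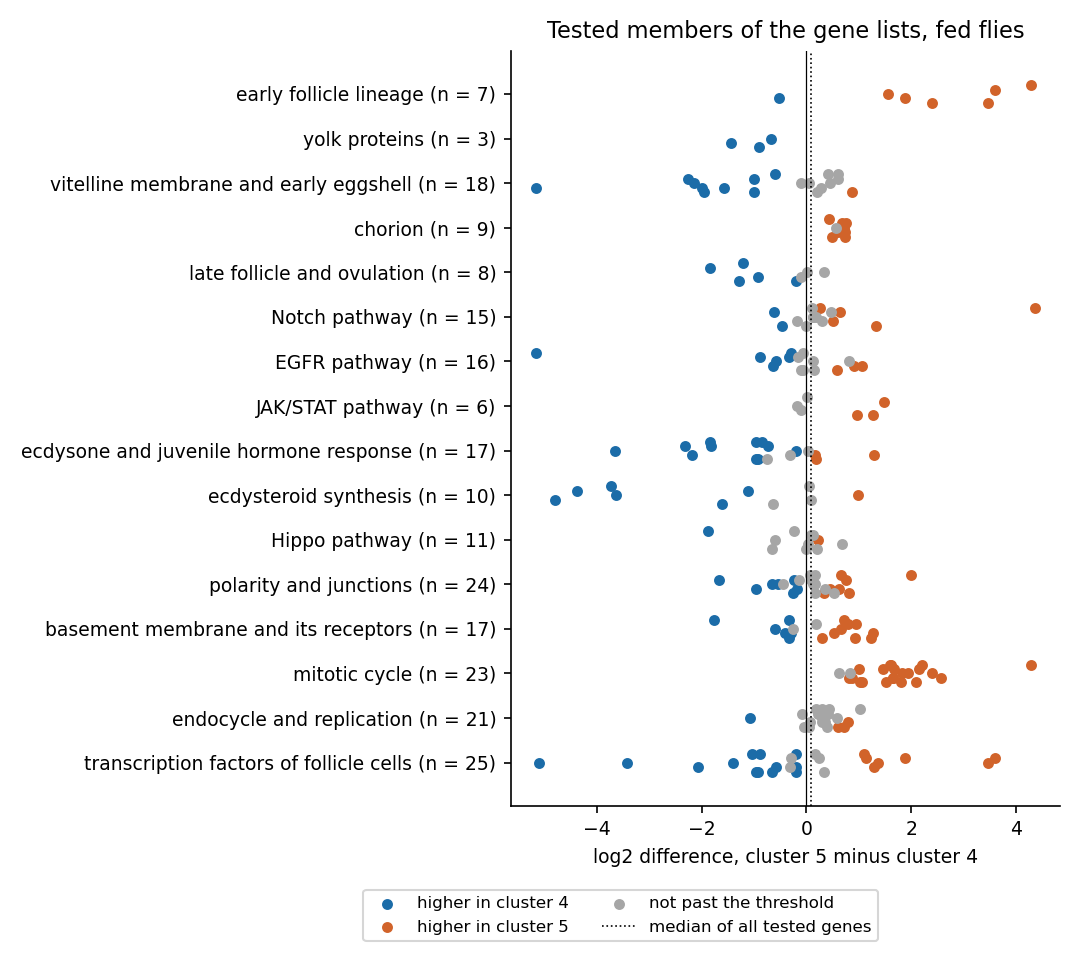
Log2 difference, cluster 5 minus cluster 4, of each tested member of the gene lists (1 point per gene, lists in rows with the number tested). Blue points were higher in cluster 4, orange points in cluster 5, grey points did not pass, and the dotted line is the median of all tested genes (0.08). The mitotic cycle and early follicle lineage lie to the right, and ecdysteroid synthesis and the yolk proteins to the left.

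Of the signalling pathways, Notch itself was higher in cluster 5. *N*, the receptor gene, was at 14.6 and 15.2 UMIs per 10000 in cluster 4 and at 37.9 and 36.98 in cluster 5 (log2 1.33 ± 0.06), and cluster 5 had the highest level of all clusters. *Dl*, its ligand Delta, was at 8.45 and 9.90 UMIs per 10000 in cluster 4 and at 13.2 and 12.9 in cluster 5, and *fng*, the glycosyltransferase Fringe that tunes which ligand Notch answers, was at 2.49 and 1.68 UMIs per 10000 in cluster 4 and at 3.32 and 3.04 in cluster 5. All 3 genes passed toward cluster 5, although per nucleus *fng* had a difference of -0.22 and *Dl* of -0.34. For *fng* the difference of 0.64 ± 0.11 became 1.83 without the deepest 10% of nuclei and 1.37 with nuclei reduced to 1000 UMIs. The responding genes went both ways. *E(spl)m7-HLH* had 4 UMIs in cluster 4 and 30 in cluster 5, a ratio of 14.9 (95% counting interval 5.25 to 58.2). *E(spl)mbeta-HLH*, another repressor of the same complex, was at 3.11 and 2.66 UMIs per 10000 in cluster 4 and at 2.15 and 2.01 in cluster 5, and *peb*, the gene of Hindsight, was at 9.30 and 11.3 UMIs per 10000 in cluster 4 and at 3.40 and 4.42 in cluster 5 (log2 -1.40 ± 0.08). In all, 5 of 15 tested Notch pathway genes were higher in cluster 5 and 2 in cluster 4 (median 0.18). The shares over all tested genes were 16.3% and 13.3%, with a median of 0.08.

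In the JAK/STAT pathway, 3 of 6 tested genes were higher in cluster 5 and 0 in cluster 4 (median 0.49). Per nucleus, 2 of the 6 were higher in cluster 5 and 3 in cluster 4, with the median turned to -0.37. Over all tested genes the shares were 16.3% and 13.3%, with a median of 0.08. *Socs36E*, a target that feeds back to inhibit the pathway, was at 2.21 and 2.11 UMIs per 10000 in cluster 4 and at 6.41 and 5.72 in cluster 5 (log2 1.48 ± 0.10). *dome*, the receptor, was at 0.665 and 0.740 UMIs per 10000 in cluster 4 and at 1.16 and 1.62 in cluster 5, and *apt*, a nuclear antagonist of STAT, was at 3.70 and 3.86 UMIs per 10000 in cluster 4 and at 8.79 and 9.49 in cluster 5. *Stat92E*, the transcription factor of the pathway, had 3.43 and 3.63 in cluster 4, 3.14 and 3.09 in cluster 5 and did not pass. The 3 ligand genes *upd1*, *upd2* and *upd3* had too few UMIs to be tested.

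In the EGF receptor pathway, 3 of 16 tested genes were higher in cluster 5 and 6 in cluster 4 (median -0.09), where 16.3% and 13.3% of all genes passed. With median-ratio factors, 1 was higher in cluster 5 and 6 in cluster 4. *spi*, the ligand Spitz, was at 1.49 and 1.67 UMIs per 10000 in cluster 4 and at 3.34 and 3.24 in cluster 5 (log2 1.06 ± 0.11). *sty*, the inhibitor Sprouty, was at 8.64 and 8.30 UMIs per 10000 in cluster 4 and at 5.35 and 5.51 in cluster 5 (log2 -0.64 ± 0.08), and *cic*, the repressor Capicua that the pathway switches off, was at 9.58 and 9.77 UMIs per 10000 in cluster 4 and at 6.13 and 6.81 in cluster 5. The receptor gene *Egfr* had 12.01 and 12.3 in cluster 4, 13.4 and 13.6 in cluster 5 and did not pass. Of 11 Hippo pathway genes, 1 was higher in cluster 4 and 1 in cluster 5. The former was *ds*, the giant cadherin Dachsous, which was at 25.95 and 24.6 UMIs per 10000 in cluster 4 and at 6.85 and 6.81 in cluster 5, a 3.70-fold difference, with its highest level of all clusters in cluster 4.

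Adhesion and junction genes showed no shared direction, with 7 of 24 higher in cluster 4 and 7 in cluster 5 (median 0.15). Over all tested genes, 13.3% and 16.3% passed in these directions. Without the deepest 10% of nuclei, 3 of the 24 were higher in cluster 4 and 7 in cluster 5 (median 0.08). *Fas2*, the adhesion protein Fasciclin 2, was at 7.44 and 8.42 UMIs per 10000 in cluster 4 and at 32.7 and 30.6 in cluster 5 (log2 2.00 ± 0.06). *shg*, the E-cadherin gene, was at 2.49 and 2.58 UMIs per 10000 in cluster 4 and at 4.70 and 4.20 in cluster 5, and *baz*, the apical polarity protein Bazooka, was at 6.46 and 7.06 UMIs per 10000 in cluster 4 and at 11.3 and 11.3 in cluster 5. Per nucleus *shg* had a difference of -0.05 and *baz* of -0.11. Toward cluster 4 lay *Cad99C*, a cadherin of follicle cell microvilli, which was at 6.92 and 5.56 UMIs per 10000 in cluster 4 and at 3.14 and 3.22 in cluster 5, and *Cad87A*, which was at 4.28 and 5.06 UMIs per 10000 in cluster 4 and at 2.70 and 3.24 in cluster 5.

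Of 17 tested genes of the basement membrane and its receptors, 9 were higher in cluster 5 and 6 in cluster 4 (median 0.30). Among all tested genes, 16.3% and 13.3% passed in these directions (median 0.08). *trol*, which encodes the matrix proteoglycan perlecan, was at 36.6 and 38.2 UMIs per 10000 in cluster 4 and at 84.5 and 90.7 in cluster 5 (log2 1.23 ± 0.04), the highest level of any cluster. *SPARC*, a matrix protein that binds collagen, was at 0.809 and 0.943 UMIs per 10000 in cluster 4 and at 2.12 and 2.10 in cluster 5. The collagen IV genes *Col4a1* and *vkg* and the laminin genes *LanA*, *LanB1* and *LanB2* were all higher in cluster 5, by between 0.30 and 0.80 (log2). Of the receptors, the integrin subunits *mys* (-0.59 ± 0.09) and *mew* (-0.33 ± 0.06) and the dystroglycan gene *Dg* (-0.32 ± 0.09) were higher in cluster 4, and the integrin subunit *if* (0.94 ± 0.21) in cluster 5. Of the enzymes that modify collagen, *Plod* (0.92 ± 0.09) was higher in cluster 5 and *PH4alphaEFB* (-0.29 ± 0.12) in cluster 4. *Timp*, the inhibitor of matrix metalloproteases, was at 1.92 and 1.81 UMIs per 10000 in cluster 4 and at 0.711 and 0.420 in cluster 5. Per nucleus, 9 of these genes were higher in cluster 4 and 2 in cluster 5, with the median turned to -0.56. The genes toward cluster 5 were *trol* with 0.37 and *SPARC* with 0.41.

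Toward cluster 4, the leading genes were at low levels in cluster 5, up to 1.22 UMIs per 10000 for *CrebA*. At 1000 UMIs per nucleus *CrebA* was in 6.99% and 9.06% of cluster 5 nuclei, against 2.48% and 2.11% in flight muscle. *CG5326* was at 15.1 and 13.6 UMIs per 10000 in cluster 4 and at 0.271 and 0.372 in cluster 5, a 44.4-fold difference (log2 -5.47 ± 0.12). It was found in 59.1% and 55.7% of the cluster 4 nuclei and in 1.70% and 3.35% of the cluster 5 nuclei at 1000 UMIs each, the latter near the 2.16% and 1.38% of flight muscle. No other cluster had a higher level of it. *bond*, an elongase of very long chain fatty acids, was at 5.37 and 4.28 UMIs per 10000 in cluster 4 and at 0.124 and 0.120 in cluster 5, and *CrebA*, a transcription factor that raises genes of the secretory machinery, was at 13.3 and 10.5 UMIs per 10000 in cluster 4 and at 0.982 and 1.22 in cluster 5 (log2 -3.42 ± 0.10). In cluster 4, *bond* was found in a larger share of the nuclei with *CrebA* than of those without, since at 1000 UMIs 33.9% and 31.6% of the nuclei with *CrebA* also had *bond*, against 11.7% and 11.8% of those without.

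*ana*, a secreted glycoprotein known from the larval brain, was at 3.37 and 2.24 UMIs per 10000 in cluster 4 and at 0.0564 and 0.0599 in cluster 5, a ratio of pooled levels of 48.4 (95% counting interval 26.2 to 101). *DIP-theta*, a surface protein of the immunoglobulin superfamily, had 924 UMIs in cluster 4 and 5 in cluster 5, a ratio of 92.98 (95% counting interval 39.7 to 287). It was carried by few nuclei, with 50% of its UMIs in 9 and 13 of the nuclei of cluster 4 in the 2 libraries. For *CG5326*, 90 and 86 nuclei were needed to reach the same share. *CG31145* was at 15.9 and 14.02 UMIs per 10000 in cluster 4 and at 0.903 and 1.02 in cluster 5, and *Buffy*, a Bcl-2 family gene, was at 3.37 and 3.55 UMIs per 10000 in cluster 4 and at 0.372 and 0.420 in cluster 5. At equal depth, *CG31145* was in 65.1% and 60.7% of cluster 4 nuclei and in 60.3% and 60.9% of flight muscle nuclei. For *Buffy* the shares were 25.0% and 23.8% against 1.18% and 0.856%. *sona*, a secreted metalloprotease, and *CG32137* were 12.1-fold and 12.1-fold higher in cluster 4. In library 2, 1 nucleus of cluster 4 held 162 of the 418 UMIs of *sona*. There 8 nuclei held 50% of its UMIs, against 32 nuclei in library 1. Of the 12 leading genes toward cluster 4, 5 had their highest level of all clusters there, and of the 12 toward cluster 5, 4 had it in cluster 5.

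Genes that answer to ecdysone, the steroid hormone of insects, were mostly higher in cluster 4. Of 17 genes of the ecdysone and juvenile hormone response, 11 were higher in cluster 4 and 3 in cluster 5, with a median of -0.85 against 0.08 over all genes. Without the deepest 10% of nuclei, 8 of 15 tested genes were higher in cluster 4 and 2 in cluster 5 (median -0.56). Of the 17 genes, 5 had a higher level in flight muscle than in either cluster. *EcR*, the ecdysone receptor, was at 18.9 and 19.1 UMIs per 10000 in cluster 4 and at 10.3 and 9.24 in cluster 5 and was highest in cluster 4 of all clusters. *Eip74EF*, an early target that encodes an ETS factor, was at 4.85 and 5.36 UMIs per 10000 in cluster 4 and at 0.936 and 1.11 in cluster 5 (log2 -2.31 ± 0.11), and *Eip75B*, a nuclear receptor of the same early set, was at 20.9 and 20.8 UMIs per 10000 in cluster 4 and at 12.2 and 10.97 in cluster 5. In library 2, 1 nucleus of cluster 4 held 168 of the 898 UMIs of *Eip74EF*. The nuclear receptor gene *ftz-f1* went the other way, with 1.55 and 1.47 in cluster 4, 3.78 and 3.62 in cluster 5 (log2 1.29 ± 0.11). *Kr-h1*, the main target of juvenile hormone, was at 3.74 and 3.35 UMIs per 10000 in cluster 4 and at 1.84 and 1.81 in cluster 5, and *ImpL2*, an ecdysone-inducible protein that binds insulin-like peptides, was at 1.51 and 1.53 UMIs per 10000 in cluster 4 and at 0.451 and 0.240 in cluster 5 (log2 -2.18 ± 0.18).

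Of 10 genes that make or break down ecdysone, 6 were higher in cluster 4 and 1 in cluster 5 (median -1.37), most at low levels. *spo*, *sad*, *dib* and *shd* encode cytochrome P450 enzymes of the pathway. These 4 met the filter of 10 UMIs only through cluster 4, so the filter itself leaned them that way. The count and the median of this list are therefore no support for a direction. *sad* was at 0.906 and 0.770 UMIs per 10000 in cluster 4 and at 0.0451 and 0.0839 in cluster 5, and *spo* was at 0.791 and 0.776 UMIs per 10000 in cluster 4 and at 0.0790 and 0.0360 in cluster 5. *dib* had 55 UMIs in cluster 4 and none in cluster 5, so that its level was at least 9.22-fold higher in cluster 4, taking a floor of 3 counts over both libraries. *shd*, the last step to the active hormone, had 128 and 2 UMIs, a ratio of 32.2 (95% counting interval 8.73 to 269). *Cyp18a1*, which breaks the hormone down, is among the 6, with 3.86 and 4.25 in cluster 4, 1.78 and 1.94 in cluster 5. So is *spok*, which had 27 and 10 UMIs, a ratio of 1.36 (95% counting interval 0.637 to 3.15), with the cluster 5 level above that of cluster 4 in library 1 and at 0 in library 2. *nvd*, the first enzyme, had 9.26 and 8.86 in cluster 4, 9.89 and 9.43 in cluster 5 and did not pass, and *sro* had 0.109 and 0.167 in cluster 4, 0.271 and 0.264 in cluster 5 and was higher in cluster 5.

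Among 25 transcription factors of follicle cells, 13 were higher in cluster 4 and 7 in cluster 5 (median -0.21). *mid* and *H15*, a pair of T-box genes, stood out beside *CrebA* and *peb*. *mid* was at 5.42 and 4.12 UMIs per 10000 in cluster 4 and at 1.21 and 1.04 in cluster 5 (log2 -2.07 ± 0.11). *H15* had 458 UMIs in cluster 4 and 6 in cluster 5, a ratio of 38.4 (95% counting interval 17.5 to 105). *mirr*, an Iroquois homeodomain gene known from dorsal anterior follicle cells, was at 6.66 and 6.86 UMIs per 10000 in cluster 4 and at 3.77 and 3.54 in cluster 5 (log2 -0.89 ± 0.09), and *pip*, the sulfotransferase that marks the ventral side for the embryo, was at 2.47 and 2.36 UMIs per 10000 in cluster 4 and at 0.0790 and 0.0480 in cluster 5.

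Within cluster 4 these genes were not spread evenly over the nuclei. At 1000 UMIs per nucleus, *mid* was found in 80% and 84.8% of the nuclei with *H15* in the 2 libraries, against 22.6% and 19.1% of those without. With *mirr* the relation ran the other way, *mid* being in 8.29% and 10.2% of the nuclei with *mirr* and in 36.3% and 30.1% of those without. *H15* was in 0.922% and 0.408% of the nuclei with *mirr*, against 10.3% and 8.02% of those without. *pip* showed no such division by *mirr*, with 17.5% and 14.7% of the nuclei with it and 13.9% and 14.8% of those without. These are shares of nuclei within a library, given as a description, and the pairs were picked after the levels had been seen.

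Yolk protein genes and vitelline membrane genes were higher in cluster 4, and few nuclei carried much of the second set. *Yp2* was at 14.9 and 13.98 UMIs per 10000 in cluster 4 and at 5.28 and 5.38 in cluster 5 (log2 -1.44 ± 0.07), and its highest level of all clusters was in cluster 4. *Yp1* was at 14.1 and 14 UMIs per 10000 in cluster 4 and at 7.92 and 7.07 in cluster 5, and *Yp3* was at 8.75 and 7.29 UMIs per 10000 in cluster 4 and at 5.09 and 4.95 in cluster 5. All 3 of 3 yolk genes were higher in cluster 4 (median -0.91). Without the deepest 10% of nuclei of each cluster and library, 2 of 3 passed (median -0.37), with -0.37 for *Yp1*, and *Yp3* no longer passed (-0.18). Flight muscle, which should make none of them, was at 11.97 for *Yp1*, 7.85 for *Yp2* and 7.68 for *Yp3*, so that the cluster 5 levels were below those of a cell type without the gene and *Yp3* in cluster 4 lay on both sides of it.

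Of 18 vitelline membrane and early eggshell genes, 9 were higher in cluster 4 and 1 in cluster 5 (median -0.35). *dec-1*, an eggshell matrix protein, was at 4.67 and 5.04 UMIs per 10000 in cluster 4 and at 1.12 and 0.899 in cluster 5 (log2 -2.27 ± 0.12), and *Vml*, a vitelline membrane-like protein, was at 3.17 and 2.75 UMIs per 10000 in cluster 4 and at 0.869 and 0.659 in cluster 5. *ndl*, a protease of the eggshell, was at 4.39 and 3.96 UMIs per 10000 in cluster 4 and at 0.857 and 1.02 in cluster 5. The levels rested on a handful of nuclei in cluster 4, since 50% of the *dec-1* UMIs lay in 7 and 7 nuclei in the 2 libraries, and so did 50% of the *Vml* UMIs in 7 and 7. In cluster 5, 35 and 31 nuclei held 50% of the far fewer *dec-1* UMIs.

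These nuclei shared several of the genes. In cluster 4, 15 and 14 nuclei had at least 10 UMIs of *dec-1*, with medians of 6578 and 6001 UMIs in all, and no nucleus of cluster 5 reached that number. Of them, 15 and 14 also had 10 or more UMIs of *Vm26Ab*, 13 and 12 of *Vml*, 12 and 11 of *ndl*, 15 and 13 of the leading gene *CG31869*, 15 and 13 of the leading gene *RhoGEF64C* and 15 and 13 of the ecdysone response gene *Hr4*. None had as many of *DIP-theta*. The genes and the count of 10 were picked after their spread over nuclei had been seen.

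When the deepest 10% of the nuclei of each cluster and library was left out, the eggshell list changed. Then 4 of 18 genes were higher in cluster 4 and 2 in cluster 5, and the median moved to 0.32. The difference of *dec-1* became 0.10, that of *Vml* 0.66 and that of *Vm34Ca*, another vitelline membrane gene, 0.41 from -0.60 ± 0.07. *Hr4* went from -1.83 ± 0.11 to -0.12, *CG31869* from -4.04 ± 0.12 to -2.03 and *RhoGEF64C* from -3.88 ± 0.12 to -2.10. Of the 24 leading genes, 9 moved by over 1.5-fold, 6 of those higher in cluster 4, which all came nearer 0, and 3 of those higher in cluster 5, which all went further from it. Beside *CG31869* and *RhoGEF64C* they were *bond* (-4.32), *pip* (-4.45), *CG32137* (-2.53), *CrebA* (-2.77), *ko* (3.83), *CG34417* (3.81) and *CG9932* (3.62). Of the others, *CG5326* had -5.28, *ct* 3.49 and *stg* 4.37. At 1000 UMIs the share of nuclei with *Vml* was 7.42% and 6.83% in cluster 4, 7.56% and 5.71% in cluster 5 and 7.91% and 7.18% in flight muscle, so outside the nuclei rich in it the gene was at background in both clusters. Whether the deep nuclei were doublets was not tested.

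The late follicle and ovulation list had 5 of 8 genes higher in cluster 4 and 0 in cluster 5 (median -0.57), led by *Hr39*, a nuclear receptor needed for ovulation, with 2.67 and 1.94 in cluster 4, 0.778 and 0.503 in cluster 5. Without the deepest 10% of nuclei, *Hr39* kept a difference of -1.58, whereas *Mmp2*, a matrix metalloprotease of follicle rupture, turned from -1.28 ± 0.27 to 0.33 and *sim*, the single-minded factor, from -1.20 ± 0.30 to 0.83. Then 2 of 7 genes of the list were higher in cluster 4 and 1 in cluster 5.

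Of the smaller marker lists, all 3 of 3 stretch cell genes were higher in cluster 4 (median -1.40), namely *peb*, the secreted BMP-binding protein gene *cv-2* (2.35 and 2.13 in cluster 4, 1.05 and 1.10 in cluster 5) and the BMP ligand gene *dpp* (0.401 and 0.561 in cluster 4, 0.248 and 0.120 in cluster 5). *dpp* did not pass with nuclei reduced to 1000 UMIs (-0.33 from -1.42 ± 0.27), and in single libraries it had -0.67 and -2.16. Of 4 polar and border cell genes, 2 were higher in cluster 4 and 1 in cluster 5 (median -0.81). Among all tested genes the shares were 13.3% and 16.3%. *jing*, a zinc finger gene of border cell migration, was at 19.1 and 17.9 UMIs per 10000 in cluster 4 and at 5.22 and 5.51 in cluster 5, the highest of all clusters in cluster 4, and *sn*, the actin bundling protein fascin, was at 1.22 and 0.997 UMIs per 10000 in cluster 4 and at 0.293 and 0.300 in cluster 5. *tai*, a coactivator of the ecdysone receptor, had 38.96 and 38.3 in cluster 4, 44.1 and 42.3 in cluster 5 and was slightly higher in cluster 5 (log2 0.16 ± 0.05), but per nucleus it had -0.70. General follicle identity had 2 of 4 genes higher in cluster 4, *tj* and *mirr*, and 0 in cluster 5 (median -0.36).

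Chorion genes and markers of several other tissues lay below their flight muscle levels in both clusters. Of 9 chorion genes, 8 were higher in cluster 5 (median 0.68) and 0 in cluster 4. *Cp15*, a protein of the outer eggshell, was at 9.94 and 8.52 UMIs per 10000 in cluster 4 and at 16.02 and 13.5 in cluster 5, and it stood at 22.2 in flight muscle. All 9 chorion genes were higher in flight muscle than in either cluster, as were 5 of 5 fat body genes, 4 of 4 oenocyte genes and 3 of 4 enterocyte genes, so these levels are read as background. The summed chorion level was 24.3 and 22.8 in cluster 4 and 38.9 and 34.9 in cluster 5, but per nucleus the sums were 6.65 and 5.91 UMIs in cluster 4 and 5.89 and 4.99 in cluster 5. On that scale, 4 of the 9 chorion genes passed toward cluster 4 and 0 toward cluster 5. What part the depth of the nuclei had in these values was not tested.

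The summed fat body markers were at 5.33 and 5.10 in cluster 4 and 8.57 and 8.14 in cluster 5 per 10000, and at 1.46 and 1.33 and at 1.30 and 1.16 UMIs per nucleus, with 3 of 5 genes passing toward cluster 5. For oenocyte markers the level was 7.41 and 7.13 against 11.98 and 11.3 (1 of 4 toward cluster 5). Enterocyte markers summed to 9.45 and 9.42 in cluster 4 and to 14.8 and 14.7 in cluster 5 (4 of 4). Germline markers had 2 of 8 genes higher in cluster 5 and 0 in cluster 4, where 16.3% and 13.3% of all tested genes passed. Muscle markers had 2 of 7 genes higher in cluster 4, *bt* and *sls*, both giant sarcomere proteins, with 3.66 and 4.51 in cluster 4, 2.08 and 2.39 in cluster 5 for *bt*.

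Of neuron markers 0 of 3 passed, and of glia markers 1 of 3, which was *nrv2*, toward cluster 4. The defining glial gene *repo* had 2 and 3 UMIs and the hemocyte gene *Hml* 18 and 10. None of the trachea markers could be tested, *btl* having 8 and 5 UMIs. *srp*, a GATA factor listed as a hemocyte marker, was higher in cluster 5 with 0.132 and 0.173 in cluster 4, 1.11 and 0.911 in cluster 5 (log2 2.71 ± 0.24), also per nucleus (1.85).

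**Figure D4:**
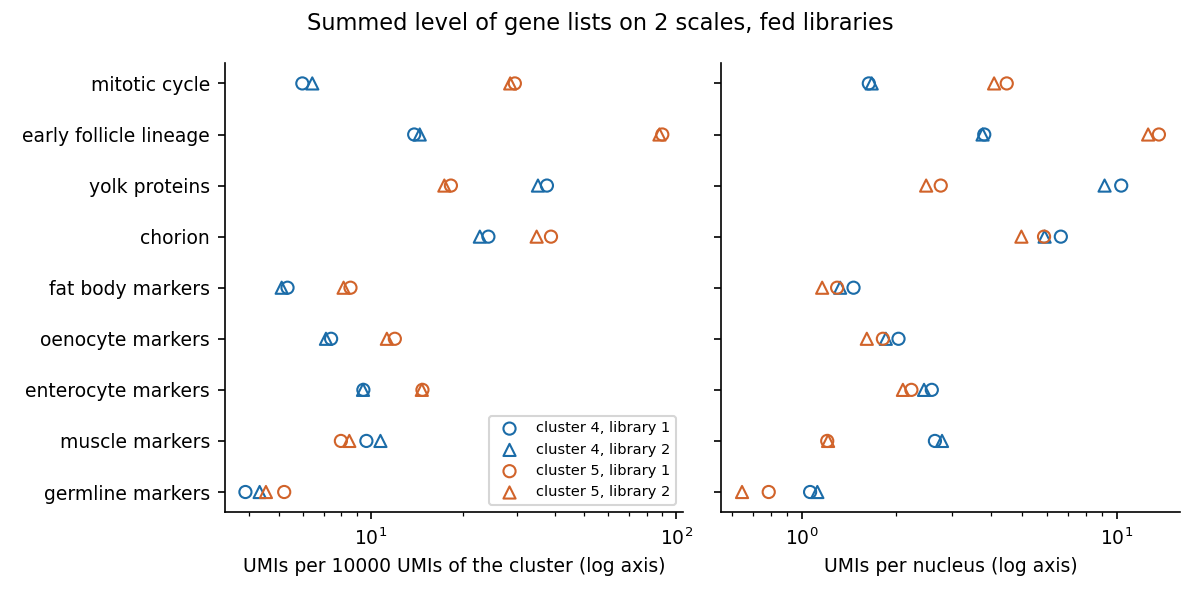
Summed level of 9 gene lists in each fed library, per 10000 UMIs of the cluster (left) and per nucleus (right), both on log axes. Blue is cluster 4, orange is cluster 5, circles and triangles are libraries 1 and 2. The mitotic and early lineage lists, in which *stg* and *ct* are the largest terms, lie further to the right in cluster 5 on both axes. The chorion, fat body and oenocyte sums are higher in cluster 5 per 10000 UMIs and slightly higher in cluster 4 per nucleus.

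The same difference was measured in the starved libraries. They were annotated together with the fed ones, so this is a repeat within 1 annotation and not an independent one. At day 2, 481 genes (6.42%) were higher in cluster 4 and 444 (5.93%) in cluster 5, and at day 5 663 (8.85%) and 573 (7.65%). Of the genes higher in cluster 4 when fed, 92.4% had the same direction at day 2 and 80.2% at day 5. For the genes higher in cluster 5 the shares were 94.3% and 71.7%. Among genes at least 2-fold apart when fed, the median log2 difference toward cluster 5 was 1.70 in fed flies, 1.44 at day 2 and 0.90 at day 5. Toward cluster 4 it was -1.94, -1.51 and -1.06. These genes were picked by their fed difference, so the order of these medians is no test.

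The change of the difference was tested in a fit over the 6 libraries, an interaction added after the starved values had been seen. Both starved days were set against the same 2 fed libraries. At day 2 the difference moved toward cluster 4 in 14 genes (0.187%) and toward cluster 5 in 13 (0.174%). At day 5 the counts were 199 (2.66%) and 202 (2.7%). At day 5 there were 151 and 202 nuclei of cluster 4, with medians of 1473 and 1524 UMIs, so that the depth of cluster 4 was close to that of cluster 5 (1375 and 1336). The part of this depth in the changes was not tested.

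Some of the leading genes differed less at day 5. *stg* had log2 differences of 4.28 and 4.27 in the fed libraries, 3.84 and 3.81 at day 2 and 1.99 and 2.26 at day 5. *CadN* had 4.09 and 3.52, 3.07 and 3.24 and 1.52 and 1.36, and *ct* 3.59 and 3.60, 3.21 and 3.35 and 1.91 and 1.93. All 3 stayed higher in cluster 5 in each library while the difference shrank at day 5. *jigr1* did not pass the test of change, with 3.69 and 3.87, 4.06 and 3.95 and 3.76 and 3.34. *CG31869* turned around, from -3.61 and -4.46 in fed flies to 2.78 and 2.08 at day 5, where its levels were 0.706 and 1.04 in cluster 4 and 4.98 and 4.46 in cluster 5. Of the genes toward cluster 4, *CG5326* kept its difference, with -6.92 and -5.90 at day 5, and that of *CrebA* shrank to -0.99 and -0.90.

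**Figure D5:**
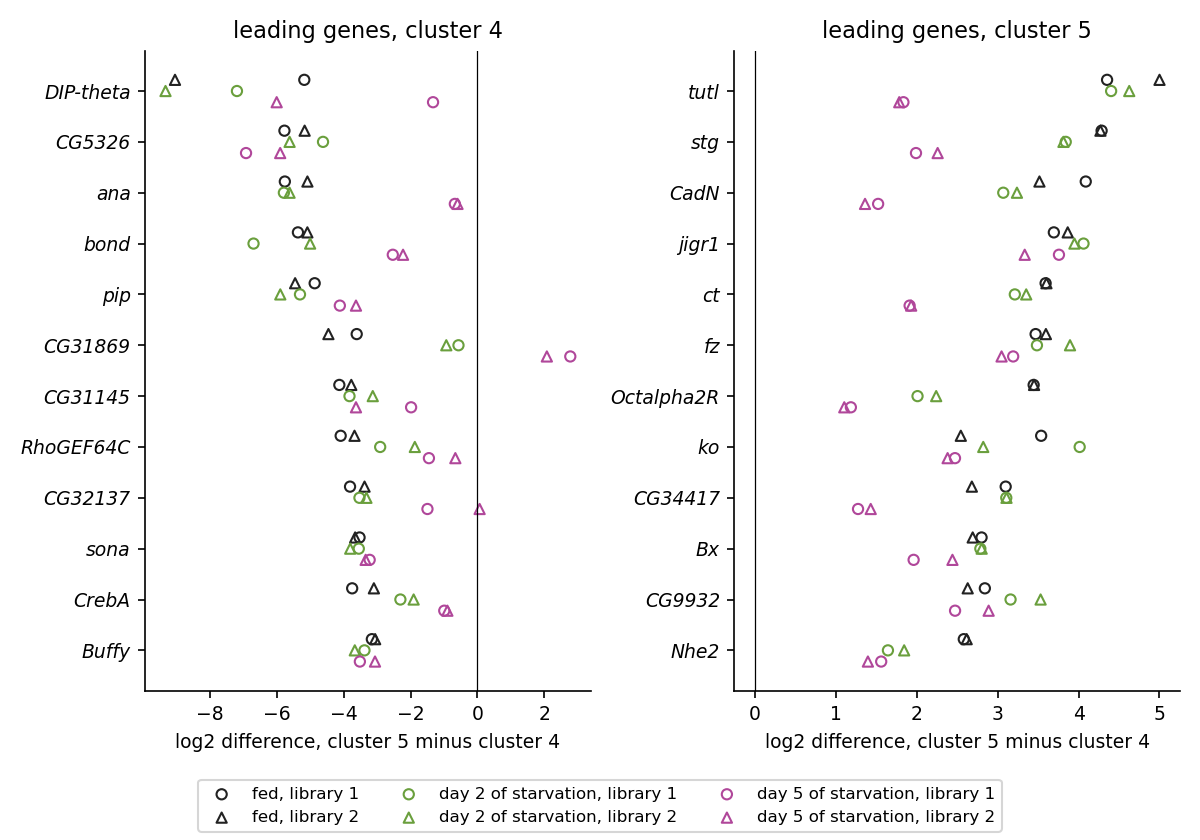
Log2 difference, cluster 5 minus cluster 4, of the 12 leading genes toward cluster 4 (left) and toward cluster 5 (right) in each of the 6 libraries. Black is fed, green is day 2 and purple is day 5 of starvation, with circles and triangles for libraries 1 and 2 of each condition. The day 5 values of *stg*, *CadN*, *ct* and *tutl* lie nearer 0 than the fed values, and *CG31869* lies on the other side of 0 at day 5.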

How the data were processed

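Nuclei were profiled with 10x 3′ v3.1 chemistry. The authors ran Cell Ranger count (6.1.1) and joined the libraries at equalized depth with Cell Ranger aggr, and the submitters' processing notes name Seurat and BDGP6. How reads were assigned by strand, how doublets were treated and how clusters were made are not given in the sources used here. The deposited values are natural log values per nucleus; how the authors made them is not given in the sources used here. They followed ln(1 + x), where x is a gene's share of the UMIs in the nucleus times 10000, divided by the mean UMIs of that gene per nucleus. Solved for UMIs, 99.96% of the values above 0 came out whole (tolerance 0.05). The files hold fewer nuclei than the study states, and no nucleus was filtered out. The cluster numbers and names are the authors'. The titles give days 2 and 5 of starvation, while the library names carry 5 and 7, and the titles are used.

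UMIs were summed per library and cluster, 0.5 was added, and log2 shares were tested with limma 3.58.1 in R 4.3.3 (moderated by trend, library as a block, two-sided, Benjamini-Hochberg over genes with at least 10 UMIs in at least 2 of the 4 sums, threshold 0.05). A gene could meet this filter through 1 cluster alone, which leaned its direction toward that cluster. Examples are *DIP-theta*, *ana*, *pip* and *H15* for cluster 4, and *cas* and *E(spl)m7-HLH* for cluster 5. Sums rather than the deposited log values were used because the latter depend on depth per nucleus. The procedure was tested on simulated data. Python 3.11.15 with numpy 2.4.6, pandas 2.3.3, scipy 1.17.1 and matplotlib 3.10.9 did the rest. Counting intervals (exact binomial, 95%) and the floor of 3 counts cover counting error only. Gene positions came from Ensembl release 115.

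Named were the 12 genes with the largest log2 difference in each direction among those past the threshold, at least 2-fold apart in both libraries and at 2 or more UMIs per 10000 in the higher cluster, and up to 4 tested members of each of 28 gene lists with the largest absolute difference. Other members were named after their values were seen. The clusters and the lists were chosen with earlier results of these data known. Alternatives to the filter, scaling, prior count, nuclei, block and libraries were run, with the per-nucleus scale and the test of change added after seeing the data.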

Additional observations from a re-analysis of the deposited data

Results flagged for a closer look

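The log2 difference between the clusters (cluster 5 minus cluster 4) changed with starvation in several of the named genes, in limma's test of the change over the 6 libraries with p-values adjusted over all tested genes. A change below is the starved minus the fed difference. Both starved days were set against the same 2 fed libraries, the test was added after the starved values had been seen, and the depth of cluster 4 was lower at day 5, and its part in the changes was not tested.

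Of the 12 leading genes toward cluster 5, picked for a large fed difference, 7 differed less at day 5, and of the 23 tested genes of the mitotic cycle 1 changed, *stg*. Over all 7489 tested genes, 199 (2.66%) moved toward cluster 4 at day 5 and 202 (2.7%) toward cluster 5. Single changes were -2.15 for *stg*, -1.68 for *ct*, -2.36 for *CadN*, -2.87 for *tutl*, -1.20 for *eya*, -1.54 for *CG34417* and -1.12 for *Nhe2*. *Octalpha2R* had already moved by -1.32 at day 2 and reached -2.30 at day 5. The same direction was seen at day 5 for the receptor gene *N* (-0.68), the STAT antagonist *apt* (-0.71) and the matrix gene *trol* (-0.82). *SPARC* went the other way and was further toward cluster 5 at day 5, by 2.05.

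Genes higher in cluster 4 when fed moved both ways. Toward cluster 5 moved *ana* (4.79), *RhoGEF64C* (2.83), *Hr4* (2.36), *Eip74EF* (2.24), *ds* (1.29), *bt* (1.16), *EcR* (0.84), *tj* (0.62) and *jing* (0.57) at day 5. *CrebA* moved by 1.32 at day 2 and by 2.48 at day 5, and at day 2 *CG31869* moved by 3.29 and *ndl* by 1.78. Further toward cluster 4 at day 5 went the stretch cell genes *peb* (-1.18) and *cv-2* (-1.31) together with *ImpL2* (-1.79), *mirr* (-0.83) and *fzr* (-0.67), and at day 2 *Yp2* (-1.47) and *Vm34Ca* (-3.39).

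In 8 named genes both starved libraries lay on the other side of 0 from both fed libraries. At day 5 the starved difference was 2.43 for *CG31869*, 0.35 for *Hr39*, 0.77 for *sls*, -0.16 for *tai* and -0.13 for *alphaTry*, and these 5 also passed the test of change. It was -0.57 for *RnrL* at day 5, and 0.25 for *Gli* and -0.29 for *aub* at day 2, where the change did not pass.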

How the results depend on the processing

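Against 995 toward cluster 4 and 1221 toward cluster 5, the test called 574 toward cluster 4 and 573 toward cluster 5 with no filter on low counts, 891 toward cluster 4 and 743 toward cluster 5 with a filter of 50 UMIs, 703 toward cluster 4 and 701 toward cluster 5 with nuclei reduced to 1000 UMIs, 3585 toward cluster 4 and 398 toward cluster 5 on the mean deposited value, and 4734 toward cluster 4 and 255 toward cluster 5 per nucleus. Median-ratio factors, a prior count of 2 and leaving out the deepest 10% of nuclei kept each count within 1.5 times. With no replicate block the counts were 912 toward cluster 4 and 1096 toward cluster 5, and 4 of the 105 named calls (*Sos*, *aub*, *nub* and *Amy-p*) were lost. Both clusters of a library come from 1 suspension of nuclei, so the libraries pair them. In the fit of all 6 libraries there were 593 toward cluster 4 and 561 toward cluster 5. Leaving out fed replicate 1 or 2 from it gave between 260 and 284 toward cluster 4 and between 206 and 235 toward cluster 5, the lone library being assumed to vary like the starved ones. Named calls no longer passing numbered 24 in the 6-library fit, 50 without replicate 1 and 48 without replicate 2, and none of these changed direction.

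Directions of named genes turned as follows. Per nucleus, the log2 differences were *tai* -0.70, *Cp38* -0.10, *Cp7Fb* -0.12, *Cp7Fa* -0.12, *Cp36* -0.15, *fng* -0.22, *shg* -0.051, *RnrL* -0.059, *PCNA* -0.15, *FASN1* -0.053, *apolpp* -0.20, *Cyp4g1* -0.14, *alphaTry* -0.17, *betaTry* -0.30, *Amy-p* -0.46, *CycB* -0.052 and *Cp15* -0.18. On the mean deposited value they were *Cp7Fa* -0.017, *RnrL* -0.0029, *sls* 0.0036, *Amy-p* -0.055 and *Vm34Ca* 0.11, on the natural log scale. Without the deepest 10% of nuclei they were *dec-1* 0.10, *Mmp2* 0.33, *sim* 0.83, *Vml* 0.66 and *Vm34Ca* 0.41. With nuclei reduced to 1000 UMIs, *sim* 0.077. What caused these turns was not tested beyond the setting itself. Of 126 named genes under 12 alternatives, 1226 values kept direction and side of the threshold, 191 fell below it, 18 came to pass it and 28 turned.

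Without the deepest 10% of nuclei the median UMIs per nucleus, as the mean of the 2 libraries, went from 2269 to 2172 in cluster 4 and from 1359 to 1317 in cluster 5. The share of nuclei was 6.36% in cluster 4 and 5.81% in cluster 5 of all fed nuclei, and 21.9% and 19.99% of the nuclei named as ovary cells. With 2 libraries a cluster, genes under 10 UMIs in most sums could not be tested.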

Other observations

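Within cluster 4, other pairs of genes were also counted at 1000 UMIs per nucleus, as shares of nuclei in fed libraries 1 and 2, with the pairs picked after their levels had been seen. *apt* was found in 50% and 56.7% of the nuclei with *cv-2* and in 14.9% and 19.9% of those without. *ct* was found in 10.1% and 14.05% of the nuclei with *bond* against 28.4% and 23.9% of those without, and in 40% and 41.3% of the nuclei with *stg* against 23.6% and 20.6%. *peb* showed 51.9% and 57.04% with *ct* and 50.3% and 52.8% without.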
